A study of Mus musculus with 6 samples.

Results

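The 8 genes described here encode ion channels and gap junction proteins that carry or time the electrical impulse of the heart: the sodium channel genes Scn4b and Scn4a, the connexin genes Gja1 and Gjc1, the pacemaker channel genes Hcn2 and Hcn4, and the T-type calcium channel genes Cacna1g and Cacna1h. They were taken by name from the 19320 genes of the deposited expression table, and all 8 were among the 14447 genes abundant enough to be tested. The samples, from mouse heart by their labels and all taken at 2 weeks, form 3 groups of 2, and their mRNA was sequenced. The first group had transverse aortic constriction (TAC), a narrowing of the aorta that loads the left ventricle with pressure, together with Snai1 knockdown. The second was WT with TAC, and the third was WT with sham surgery. The series' design text names the knockdown shSnai1, a short hairpin RNA against the gene of the transcriptional repressor Snail. The vector, the cells it reached, the age of the mice and whether the samples of a group came from separate mice are not stated in the labels. The protocol for RNA names both hearts and cells in culture. Both WT groups carry no stated control hairpin, so knockdown and hairpin treatment cannot be told apart.

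In the working heart, sodium channels start the action potential, gap junctions built from connexins pass it from cell to cell, and the pacemaker and T-type calcium channels bring nodal cells back to threshold. Nodal and Purkinje cells rely on pacemaker and T-type channels more than adult ventricular muscle does, and in rodents both channel types are known for being more abundant in the fetal than in the adult ventricle. Remodelling of connexin 43 and of sodium channels is a textbook feature of overloaded hearts. In bulk tissue, fewer cells of a type and less RNA per cell cannot be told apart.

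The 2 deposited columns of a group behaved as 60:40 mixtures of 2 libraries, and the values below are those of the resolved libraries, of 14835957 to 18247812 reads each, in CPM, which scales reads by the total of the library. The p-values rest on the spread between the 2 libraries of a group, pooled over the groups and drawn toward the trend over all genes. That spread may be technical. The 8 cardiomyocyte markers checked, among them Myh6, Tnnt2 and Ryr2, summed to between 94313 and 107354 CPM per library. Myh6 alone stood at 40888 to 51262 CPM. For TAC over sham 5 of these markers had a positive and 3 a negative log2 fold change, so a steady sum does not mean steady markers. Snai1 itself stood at 3.41 and 2.74 CPM in knockdown libraries, 4.48 and 4.24 in TAC libraries, and 5.12 and 3.45 in sham libraries. Both knockdown libraries lay below the other 4, with a log2 fold change against TAC of -0.51 ± 0.33 (SE), which did not pass (limma, Benjamini-Hochberg adjusted p = 0.999).

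None of the 8 conduction genes passed the test across all genes in any of the 3 comparisons (limma, adjusted p below 0.05). Of all genes tested, 0.159% passed between TAC and sham, 0% between knockdown and TAC, and 0.242% between knockdown and sham. At an unadjusted p below 0.05 the counts were 2 of 8 members between TAC and sham (Scn4b and Cacna1g, both lower; 9.57% of all genes, 3.72% lower), 0 of 8 between knockdown and TAC (2.08%), and 3 of 8 between knockdown and sham (Scn4b, Cacna1g and Cacna1h, all lower; 8.8%, 2.78% lower). Limma-voom and robust limma also called 0 of 8 in each. The median log2 fold change of the 8 genes was -0.18 for TAC over sham, against 0.04 over all genes tested. It was 0.09 for knockdown over TAC, against 0.02, and -0.22 for knockdown over sham, against 0.05. The 2 comparisons with sham share the sham libraries, and both comparisons with TAC share the TAC libraries, so their values are not independent.

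**Figure D1:**
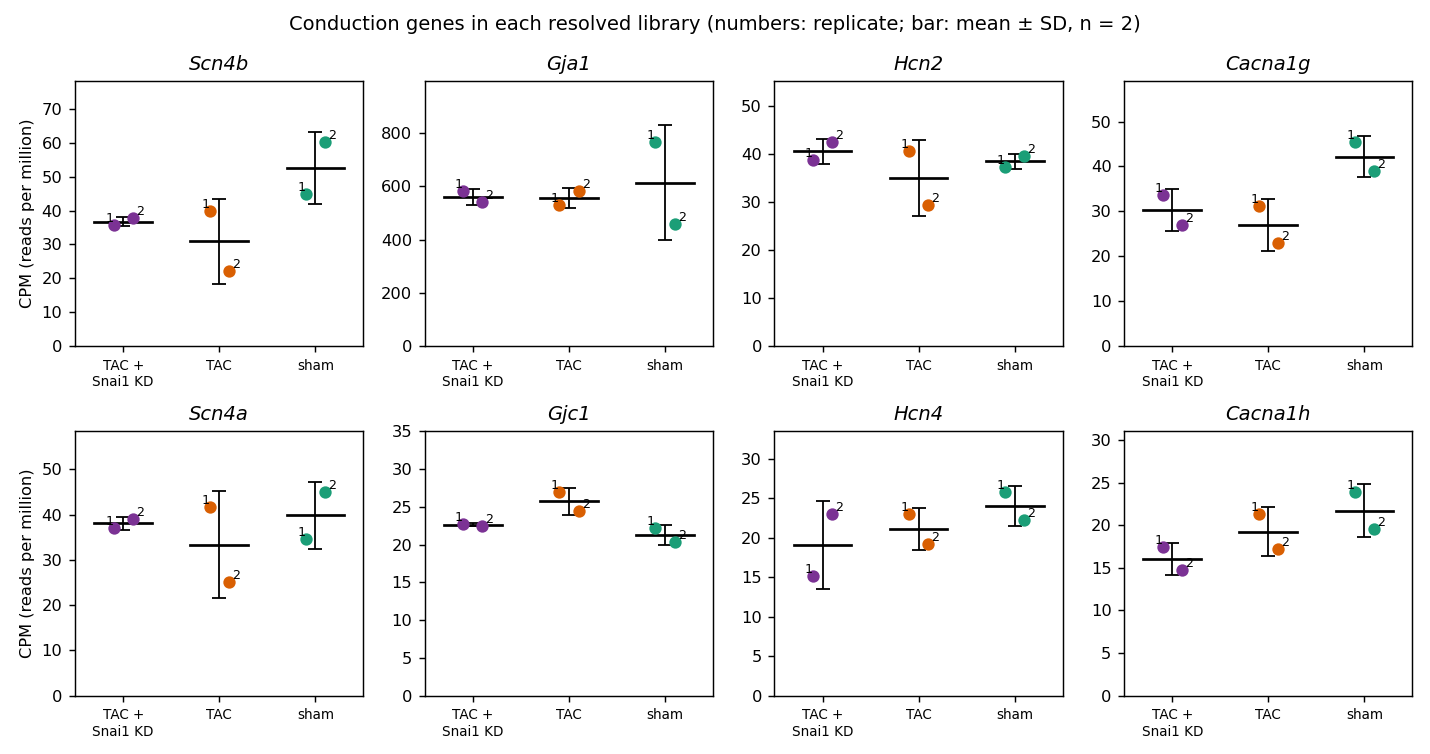
Level of each conduction gene in CPM (vertical axes, from 0) in the 2 resolved libraries of TAC with Snai1 knockdown, TAC and sham; points carry the replicate number and bars give the mean ± SD (n = 2). Scn4b and Cacna1g are the genes whose TAC and knockdown libraries all lie below both sham libraries. The share of all genes with that pattern was not counted. TAC replicate 2 is the lowest library for Scn4b, Scn4a, Hcn2 and Cacna1g.

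Scn4b encodes the beta-4 subunit, a single-pass membrane protein that attaches to sodium channel pores and alters their gating. It lies on chromosome 9 from 45138395 to 45154152 (plus strand, GRCm38, GENCODE M21). Scn4b stood at 35.8 and 37.7 CPM in knockdown libraries, 39.8 and 22.1 in TAC libraries, and 45.0 and 60.2 in sham libraries. Every library with TAC, with or without knockdown, was below both sham libraries, while the knockdown libraries lay inside the range of the TAC libraries. Between TAC and sham the log2 fold change was -0.81 ± 0.22 (SE), a level 0.571 times that of sham with a 95% interval of 0.413 to 0.790, and it did not pass over all genes (limma, adjusted p = 0.197). Between knockdown and sham it was -0.50 ± 0.22 (limma, adjusted p = 0.534). Knockdown and TAC differed by 0.31 ± 0.22, with an interval of -0.16 to 0.77 that includes 0 (limma, adjusted p = 0.999).

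The size of the Scn4b difference rested on which TAC library was used. TAC replicate 2 was 0.85 below replicate 1 on the log2 scale, 3.18 times the SD of that difference over 10248 genes averaging 100 or more reads. The 95% Poisson intervals of the 2 libraries did not meet, the upper bound of TAC replicate 2 being 24.5 CPM and the lower bound of replicate 1 37.0 CPM. Without TAC replicate 2 the log2 fold change of TAC over sham was -0.38 (limma, adjusted p = 0.795). Without TAC replicate 1 it was -1.23 and passed (limma, adjusted p = 0.0244), the lone TAC library being taken to vary like the other groups.

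Scn4a encodes Nav1.4, the pore of the skeletal muscle sodium channel, and lies on chromosome 11 from 106318592 to 106353288 (minus strand). It stood at 37.0 and 39.1 CPM in knockdown libraries, 41.7 and 25.0 in TAC libraries, and 34.6 and 45.0 in sham libraries. The 3 groups overlapped, with TAC replicate 2 the lowest library and sham replicate 2 the highest. The log2 fold change of TAC over sham was -0.29 ± 0.20 (limma, adjusted p = 0.694), and it was 0.08 without TAC replicate 2. That of knockdown over TAC was 0.23 ± 0.20 (interval -0.20 to 0.67), and it was -0.13 without TAC replicate 2. Of the skeletal muscle markers looked up, 11 of 12 were in the table, and they summed to between 4.65 and 6.69 CPM per library. Myh4, the fast skeletal myosin, had 5 to 11 reads per library, Tnni2 of the same list 15 to 48, and Scn4a 431 to 783. The part of skeletal muscle in the Scn4a values was not tested.

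Although Scn4b and Scn4a each varied widely between TAC replicates, the ratio between them within a library did not. Per kilobase of exon, Scn4b stood to Scn4a at 1.37 and 1.36 in knockdown libraries, 1.35 and 1.25 in TAC libraries, and 1.83 and 1.89 in sham libraries. All 4 libraries with TAC were thus below both sham libraries, and the 2 libraries of each group lay closer to each other than to sham. The ratio was chosen with the values of these genes known, so it is given as a description with no test.

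Gja1 encodes connexin 43, the main gap junction protein of ventricular muscle, and lies on chromosome 10 from 56377330 to 56402513 (plus strand). Per kilobase of exon it was the most abundant of the 8 genes in every library. Gja1 stood at 582 and 540 CPM in knockdown libraries, 530 and 584 in TAC libraries, and 766 and 460 in sham libraries. The sham libraries held both the highest and the lowest value, so that the other 4 libraries lay between them. The log2 fold change was -0.09 ± 0.17 for TAC over sham (interval -0.46 to 0.28; limma, adjusted p = 0.904) and 0.01 ± 0.17 for knockdown over TAC (interval -0.36 to 0.38; limma, adjusted p = 0.999). Without sham replicate 1 the value of TAC over sham was 0.28.

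Gjc1 encodes connexin 45, a connexin of nodal tissue and of the early heart tube, and lies on chromosome 11 from 102799579 to 102819700 (minus strand). It stood at 22.8 and 22.5 CPM in knockdown libraries, 27.0 and 24.5 in TAC libraries, and 22.2 and 20.3 in sham libraries. The TAC libraries were above both other groups without overlap, and the knockdown libraries lay between TAC and sham. Gjc1 alone among the 8 genes had a positive log2 fold change of TAC over sham, 0.28 ± 0.15 with an interval of -0.05 to 0.60 (limma, adjusted p = 0.591). That of knockdown over TAC was -0.18 ± 0.15 (interval -0.51 to 0.14; limma, adjusted p = 0.999). These differences amount to a few CPM, and the Poisson interval of the lower TAC library, 22.2 to 27.0 CPM, overlaps that of sham replicate 1, 19.9 to 24.8 CPM.

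Groups without overlap were common over all genes at 2 libraries a group. Between TAC and sham 3 of 8 members did not overlap, against 40.1% of all genes tested. Between knockdown and TAC it was 1 of 8, Gjc1, against 28.4%, and between knockdown and sham 4 of 8, against 39.3%. Scn4b and Cacna1g had every library with TAC below both sham libraries, and Gjc1 had every one above them. The share of all genes with either pattern was not counted.

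The connexins differed in level far more than between groups. Per kilobase of exon Gja1 exceeded Gjc1 12.5 and 11.7 times in knockdown libraries, 9.57 and 11.6 times in TAC libraries, and 16.8 and 11.1 times in sham libraries. Sham overlapped with both other groups in this ratio, and both knockdown libraries were just above both TAC libraries. Gja5, the gene of connexin 40 of atria and the fast conduction system, stood at 17.3 and 13.6 CPM in knockdown libraries, 20.1 and 17.9 in TAC libraries, and 14.4 and 14.0 in sham libraries. Its TAC libraries were the highest, as with Gjc1, at a log2 fold change over sham of 0.41 ± 0.18 (limma, adjusted p = 0.486).

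Hcn2 and Hcn4 encode channels of the pacemaker current, which opens on hyperpolarization and binds cyclic AMP. Hcn4 is the principal form of the sinoatrial node, and Hcn2 is found in both working muscle and nodal cells. Hcn2 lies on chromosome 10 from 79716634 to 79736108 and Hcn4 on chromosome 9 from 58823412 to 58863175, both on the plus strand. Because Snail proteins bind the E-box core CAGGTG, the start regions of the genes were searched for it on both strands. RefSeq windows of 300 bases (GRCm38.p6, 250 before and 50 after the start) were at hand for 5 of the 8 genes, Scn4b, Scn4a, Gja1, Hcn2 and Hcn4. Hcn2 alone of these 5 held the motif, in capitals in the sequence, starting 98 bases before the annotated start. Of all 32851 windows, 20.2% held it. The windows of both pacemaker genes and of Scn4b, the gene with the largest fitted difference, are shown 5′ to 3′ on the plus strand. The RefSeq starts do not all match those of the GENCODE genes given above. That of Scn4b lies after the GENCODE start. The whole Hcn4 window lies before the GENCODE start of Hcn4. The whole Scn4a window, on chromosome 11 from 106349341 to 106349640, lies inside the GENCODE gene. The searches of Hcn4 and Scn4a therefore did not cover the starts of those gene models.
Hcn2, chr10:79716384-79716683: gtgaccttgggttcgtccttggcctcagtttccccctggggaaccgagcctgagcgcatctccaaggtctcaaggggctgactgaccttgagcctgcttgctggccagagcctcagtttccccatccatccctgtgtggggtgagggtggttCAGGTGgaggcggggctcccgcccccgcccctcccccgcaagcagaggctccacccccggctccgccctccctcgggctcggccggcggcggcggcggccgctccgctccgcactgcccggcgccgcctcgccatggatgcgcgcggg
Hcn4, chr9:58822699-58822998: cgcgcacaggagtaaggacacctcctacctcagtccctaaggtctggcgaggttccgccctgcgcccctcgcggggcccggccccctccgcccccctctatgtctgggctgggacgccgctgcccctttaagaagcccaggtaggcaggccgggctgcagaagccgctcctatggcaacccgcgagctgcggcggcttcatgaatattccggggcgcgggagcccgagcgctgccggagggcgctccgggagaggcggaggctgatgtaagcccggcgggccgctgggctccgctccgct
Scn4b, chr9:45138374-45138673: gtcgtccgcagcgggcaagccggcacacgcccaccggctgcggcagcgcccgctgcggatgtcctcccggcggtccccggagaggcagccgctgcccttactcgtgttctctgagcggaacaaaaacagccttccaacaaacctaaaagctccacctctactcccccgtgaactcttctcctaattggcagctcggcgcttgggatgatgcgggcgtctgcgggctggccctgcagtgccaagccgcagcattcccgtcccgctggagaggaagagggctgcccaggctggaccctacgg
The NR4A response element AAAGGTCA and the cyclic AMP response element TGACGTCA, searched likewise, were in none of the 5 windows and in 1.51% and 1.79% of all windows. All 3 windows shown are rich in G and C, at 72.3% for Hcn2, 71.7% for Hcn4 and 66.3% for Scn4b, against a median of 52.7% over all windows. Of the windows not shown, that of Scn4a had 63.0% and that of Gja1 47.7%, below the median. A match is a run of letters and not a bound site, and a window without one says nothing of Snail elsewhere in the gene.

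Hcn2 stood at 38.8 and 42.5 CPM in knockdown libraries, 40.7 and 29.5 in TAC libraries, and 37.4 and 39.6 in sham libraries. Apart from TAC replicate 2, which was the lowest, the libraries spanned 37.4 to 42.5 CPM. The log2 fold change of knockdown over TAC was 0.23 ± 0.16 with an interval of -0.11 to 0.57 (limma, adjusted p = 0.999). Its unadjusted p, 0.167, was the smallest of the 8 genes in that comparison. That of TAC over sham was -0.15 ± 0.16 (limma, adjusted p = 0.806), and it was 0.08 without TAC replicate 2.

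Hcn4 stood at 15.1 and 23.0 CPM in knockdown libraries, 23.0 and 19.2 in TAC libraries, and 25.8 and 22.2 in sham libraries. Knockdown replicate 1 was below the other 5 libraries, and the groups overlapped otherwise. The log2 fold change of knockdown over TAC was -0.17 ± 0.20 with an interval of -0.60 to 0.26 (limma, adjusted p = 0.999), and it was 0.13 without knockdown replicate 1. Knockdown over sham gave -0.36 ± 0.20 (limma, adjusted p = 0.654), and -0.06 without knockdown replicate 1. TAC over sham gave -0.19 ± 0.20 (limma, adjusted p = 0.808).

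Hcn2 exceeded Hcn4 per kilobase of exon in every library, 4.91 and 3.55 times in knockdown libraries, 3.39 and 2.95 times in TAC libraries, and 2.77 and 3.42 times in sham libraries. The knockdown libraries had the highest ratios, with the highest in knockdown replicate 1, where Hcn4 was lowest. Hcn3, another pacemaker channel gene, had at most 2 reads in any library and was not tested. The 8 sinoatrial node markers looked up summed to 155 and 144 CPM in knockdown libraries, 145 and 149 in TAC libraries, and 153 and 148 in sham libraries. Most of the sum came from Smoc2, at 71.2 to 86.7 CPM, Rgs6, at 29.4 to 36.8 CPM, and Tbx3, at 18.3 to 26.1 CPM. Isl1 had 2 reads in TAC replicate 2 and 0 in the other 5 libraries, which at 3 reads allows up to 0.164 to 0.202 CPM. Shox2 had 9 to 25 reads per library and Vsnl1 at most 10.

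Cacna1g encodes Cav3.1, a T-type calcium channel pore that opens at low voltage, and lies on chromosome 11 from 94408391 to 94474198 (minus strand). It stood at 33.6 and 27.0 CPM in knockdown libraries, 31.1 and 22.9 in TAC libraries, and 45.4 and 39.0 in sham libraries. All 4 libraries with TAC were below both sham libraries, and knockdown and TAC overlapped. The log2 fold change of TAC over sham was -0.66 ± 0.17, a level 0.634 times that of sham with an interval of 0.490 to 0.818, and it gave the smallest adjusted p of the 8 genes without passing (limma, adjusted p = 0.180). Knockdown over sham gave -0.48 ± 0.17 (limma, adjusted p = 0.426) and knockdown over TAC 0.18 ± 0.17 (interval -0.19 to 0.55; limma, adjusted p = 0.999). Without TAC replicate 2 the value of TAC over sham was -0.44, and without TAC replicate 1 it was -0.88 (limma, adjusted p = 0.784 and 0.106).

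Cacna1h encodes Cav3.2, the other T-type pore of the heart, and lies on chromosome 17 from 25374285 to 25433783 (minus strand). Its exons share 158 bases with Tpsg1 on the other strand, a gene with 0 to 3 reads per library here. Cacna1h stood at 17.4 and 14.7 CPM in knockdown libraries, 21.3 and 17.2 in TAC libraries, and 23.9 and 19.5 in sham libraries. Both knockdown libraries were below both sham libraries, and the TAC libraries overlapped with each of the other groups. The log2 fold change of knockdown over sham was -0.43 ± 0.18 (limma, adjusted p = 0.522), that of TAC over sham -0.17 ± 0.18 (limma, adjusted p = 0.808) and that of knockdown over TAC -0.26 ± 0.18 (interval -0.65 to 0.13; limma, adjusted p = 0.999).

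The ratio of the T-type genes per kilobase, Cacna1g over Cacna1h, was 1.86 and 1.77 in knockdown libraries, 1.41 and 1.28 in TAC libraries, and 1.83 and 1.92 in sham libraries. The TAC libraries were below both other groups, whose ranges overlapped. Each gene alone was fitted lower with knockdown than in sham, Cacna1g at -0.48 ± 0.17 and Cacna1h at -0.43 ± 0.18, without passing. A like ratio in these groups is therefore not a like level. Cacna1c, the pore gene of the L-type channel that drives contraction, stood at 343 and 368 CPM in knockdown libraries, 443 and 338 in TAC libraries, and 366 and 406 in sham libraries. Per kilobase it exceeded Cacna1g 4.88 and 6.51 times in knockdown libraries, 6.82 and 7.06 times in TAC libraries, and 3.85 and 4.98 times in sham libraries. Like the Scn4b to Scn4a ratio, these ratios were chosen with earlier values known and carry no test.

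**Figure D2:**
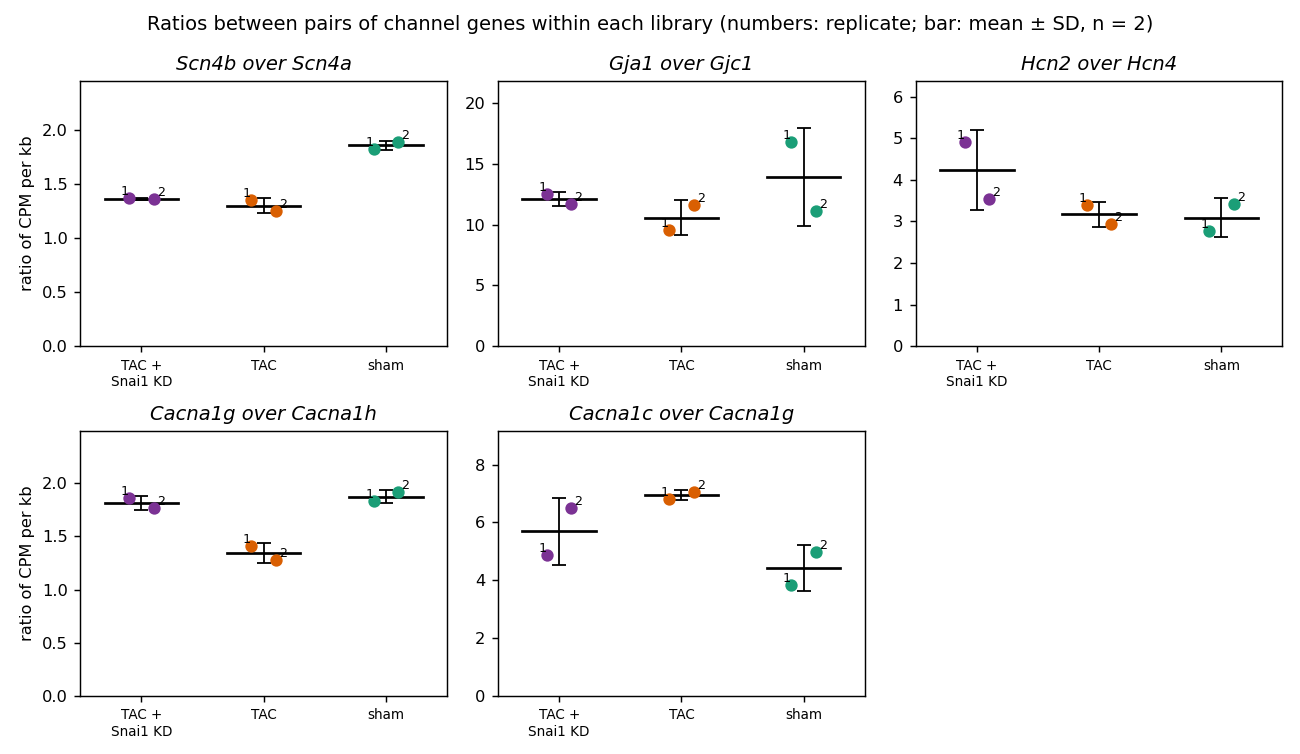
Ratio of the levels per kilobase of exon (vertical axes, from 0) for 5 pairs of channel genes in each resolved library of TAC with Snai1 knockdown, TAC and sham; points carry the replicate number and bars give the mean ± SD (n = 2). Scn4b over Scn4a lies between 1.25 and 1.37 in the 4 libraries with TAC and at 1.83 and 1.89 in sham, and Cacna1g over Cacna1h is lowest in TAC, at 1.41 and 1.28.

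**Figure D3:**
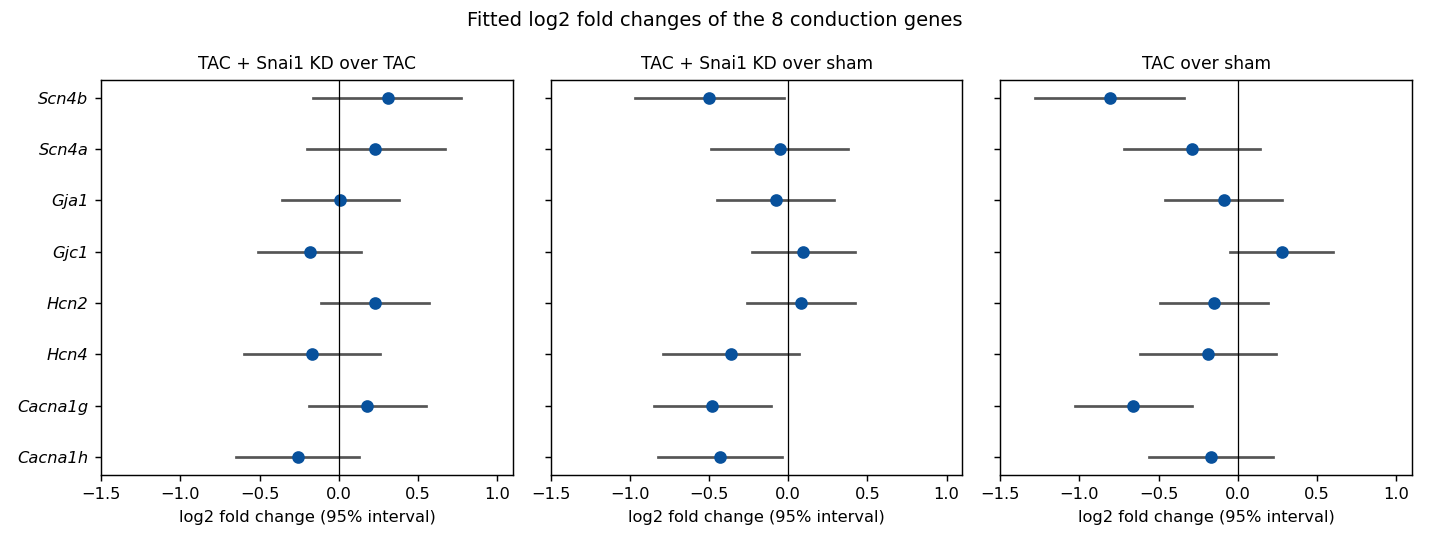
Fitted log2 fold change (horizontal axes; points) with its 95% interval (lines) for each of the 8 genes in the 3 comparisons, from the limma fit across all genes. The intervals of Scn4b and Cacna1g for TAC over sham, at -1.28 to -0.34 and -1.03 to -0.29, lie below 0 before any adjustment, and all 8 intervals for knockdown over TAC include 0.

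Ordered by level per kilobase of exon, Gja1 came first, at 44.8 to 74.7 CPM per kilobase over the 6 libraries, and Hcn2 second, at 9.23 to 13.3. Scn4b followed at 4.44 to 12.1 and Scn4a at 3.55 to 6.39. Gjc1 at 4.05 to 5.40, Hcn4 at 2.48 to 4.22 and Cacna1g at 2.26 to 4.48 overlapped with Scn4a and with each other in their ranges. Cacna1h came last in every library, at 1.51 to 2.44. Gja1 first, Hcn2 second and Cacna1h last held in all 6 libraries, while neighbours from the third to the seventh place exchanged ranks between libraries.

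**Figure D4:**
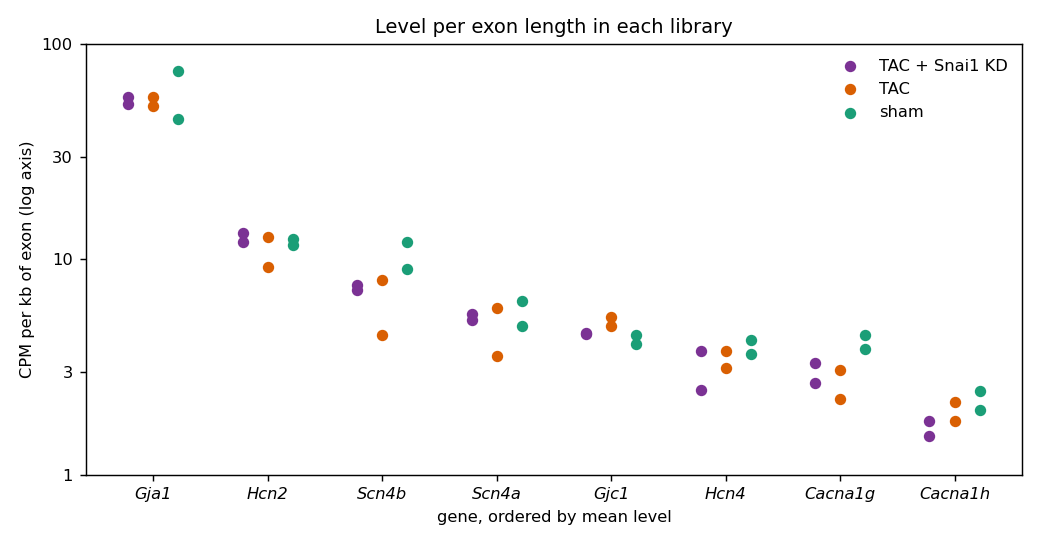
Level per kilobase of exon (vertical axis, log scale, CPM per kb) of each conduction gene in the 6 resolved libraries, with genes ordered by mean level along the horizontal axis and colours for TAC with Snai1 knockdown, TAC and sham. Gja1 stands apart at 44.8 to 74.7, and from Hcn2 to Cacna1h each gene overlaps with the next.

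The 8 genes did not vary as 1 block. TAC replicate 2 was the lowest of the 6 libraries for Scn4b, Scn4a, Hcn2 and Cacna1g, but not for Gja1, Gjc1, Hcn4 or Cacna1h. In the same library the atrial gene Bmp10 had 105 reads, against 0 to 4 in the other 5, and Nppa, the gene of atrial natriuretic peptide, stood at 346 CPM. Nppa had 106 and 205 CPM with knockdown, 173 in the other TAC library and 113 and 68.2 in sham. The 8 of 10 atrial markers in the table summed to 259 and 375 CPM in knockdown libraries, 373 and 523 in TAC libraries, and 326 and 227 in sham libraries. Nppa made up most of the sum in TAC replicate 2. Other atrial markers were lower there than in TAC replicate 1, Myl7 at 35.9 against 49.7 CPM and Myl4 at 44.4 against 62.2. Sln and Clec3b were also lower, while Dkk3 and Nr2f2 were higher. Fibroblast and endothelial markers summed higher in TAC replicate 2 than in TAC replicate 1, at 1687 against 1263 and 1439 against 1145 CPM. Blood markers summed lower there, at 799 against 872 CPM. The part of atrial tissue or of these other cells in the values of the conduction genes was not tested.

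Of the other cell types looked up, smooth muscle and pericyte markers summed to 2025 and 1772 CPM in knockdown libraries, 1725 and 1828 in TAC libraries, and 1811 and 1704 in sham libraries. Endothelial markers summed to 1428 and 1237 CPM in knockdown libraries, 1145 and 1439 in TAC libraries, and 1210 and 1089 in sham libraries. Of the 7, 6 had a positive log2 fold change of TAC over sham (median 0.20) and 7 of knockdown over sham (median 0.21). Fibroblast markers summed to 1607 and 1430 CPM in knockdown libraries, 1263 and 1687 in TAC libraries, and 1628 and 1413 in sham libraries, and 7 of 8 had a positive log2 fold change of TAC over sham (median 0.15). The sums of both lists overlapped between TAC and sham, and none of their genes passed. Macrophage markers summed to 654 and 462 CPM in knockdown libraries, 413 and 512 in TAC libraries, and 343 and 298 in sham libraries, so that every library with TAC was above both sham libraries, as Scn4b and Cacna1g were below them. Blood markers summed to 764 and 1134 CPM in knockdown libraries, 872 and 799 in TAC libraries, and 1779 and 933 in sham libraries, with both TAC libraries below both sham libraries. Neural and Schwann cell markers summed to 24.2 and 27.3 CPM in knockdown libraries, 25.3 and 26.8 in TAC libraries, and 36.8 and 25.8 in sham libraries. The part of these cells in the Scn4b and Cacna1g values was not tested.

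Of all the listed genes, only a platelet and a macrophage gene passed in any comparison. Ppbp, a chemokine gene of platelets, stood at 2.29 and 1.15 CPM in knockdown libraries, 1.82 and 0.755 in TAC libraries, and 11.3 and 16.5 in sham libraries. It was lower in TAC than in sham, at -3.50 ± 0.47 (limma, adjusted p = 0.00685), and lower with knockdown than in sham, at -3.04 ± 0.47 (limma, adjusted p = 0.0156). The first call was lost without TAC replicate 2 or sham replicate 2 (limma, adjusted p = 0.0779 and 0.0989), and the second without knockdown replicate 2 or sham replicate 2 (limma, adjusted p = 0.142 and 0.176). Cd68, a lysosomal macrophage gene, stood at 53.0 and 34.3 CPM in knockdown libraries, 34.9 and 41.7 in TAC libraries, and 20.4 and 9.42 in sham libraries. It was higher with knockdown than in sham, at 1.62 ± 0.28 (limma, adjusted p = 0.0333). That call was lost under robust limma (adjusted p = 0.293), without the filter on low values (limma, adjusted p = 0.0662), and on leaving out any 1 library but sham replicate 1, with limma's adjusted p between 0.0519 and 0.41.

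Beyond the 8 genes, lists of related genes were chosen with earlier results of these data known, and no gene of the 6 pathway lists passed in any comparison. Between TAC and sham, the remaining sodium channel subunits had a median log2 fold change of 0.04 over 8 tested of 12, the same as all genes, with 4 positive and 4 negative. Scn10a, the Nav1.8 pore gene, stood at 3.87 and 3.23 CPM in knockdown libraries, 4.48 and 3.66 in TAC libraries, and 6.88 and 6.55 in sham libraries. TAC over sham gave -0.73 ± 0.29 (limma, adjusted p = 0.436). Scn3a, a neuronal pore gene, had 38 and 60 reads in knockdown libraries, against 16 and 33 in TAC libraries; knockdown over TAC gave 1.12 ± 0.50 (limma, adjusted p = 0.999). It was 0.57 when TAC replicate 1 was left out and 1.67 when TAC replicate 2 was. Scn3b, the beta-3 subunit gene, had 34 and 11 reads in knockdown libraries, against 39 and 59 in TAC libraries, and the same comparison gave -1.20 ± 0.63 (limma, adjusted p = 0.999). It was -0.28 without knockdown replicate 2 and -2.12 without knockdown replicate 1.

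Of the remaining pacemaker and calcium channel pores 4 of 6 were tested, with a median of -0.50 for TAC over sham. Cacna1s, the L-type pore of skeletal muscle, stood at 12.3 and 13.8 CPM in knockdown libraries, 13.7 and 9.70 in TAC libraries, and 14.6 and 19.5 in sham libraries (log2 fold change of TAC over sham -0.55 ± 0.22; limma, adjusted p = 0.417). Its knockdown libraries overlapped with TAC and were below both sham libraries. Cacna1d, the L-type pore gene of pacemaker cells, had 57 and 46 reads in knockdown libraries, 80 and 32 in TAC libraries, and 59 and 68 in sham libraries. Of the remaining connexins and Panx1, 5 of 14 were tested, with a median of 0.41. Panx1 had 38 and 68 reads in knockdown libraries, 42 and 86 in TAC libraries, and 30 and 45 in sham libraries, and Gja3 stood at 27.2 and 23.5 CPM in knockdown libraries, 23.5 and 19.3 in TAC libraries, and 23.3 and 23.0 in sham libraries. Neither separated the groups in the comparison of TAC with sham.

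Transcription factors of conduction tissue had a median log2 fold change of 0.06 for TAC over sham over 15 tested of 16. Irx3, a factor of the His and Purkinje system, stood at 42.2 and 41.4 CPM in knockdown libraries, 42.8 and 51.3 in TAC libraries, and 39.4 and 29.8 in sham libraries (TAC over sham 0.45 ± 0.15; limma, adjusted p = 0.342). Tbx5, a factor that drives conduction genes in the mouse, had 762 and 824 reads in knockdown libraries, 981 and 844 in TAC libraries, and 643 and 656 in sham libraries (TAC over sham 0.35 ± 0.13; limma, adjusted p = 0.394). In CPM, both factors were above both sham libraries in every library with TAC. Between knockdown and TAC the factors nearest to the threshold were Etv1 at 0.29 ± 0.20 and Nkx2-5 at 0.15 ± 0.11 (limma, adjusted p = 0.999 for each).

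Partners of the channels at the membrane and the intercalated disc had a median of 0.02 over 15 tested of 16. Fgf12, a fibroblast growth factor homologue that binds sodium channels, had 17 and 20 reads in knockdown libraries, 46 and 36 in TAC libraries, and 18 and 6 in sham libraries (TAC over sham 1.77 ± 0.64; limma, adjusted p = 0.370). Leaving out sham replicate 1 gave 2.64, and leaving out sham replicate 2 gave 0.90.

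Regulators of pacemaker and T-type channels had a median of 0.01 for TAC over sham over 6 tested of 7. Pde3a, a phosphodiesterase that breaks down cyclic AMP, stood at 123 and 130 CPM in knockdown libraries, 145 and 124 in TAC libraries, and 102 and 98.0 in sham libraries. Every library with TAC was above both sham libraries, at a log2 fold change of TAC over sham of 0.42 ± 0.11 (limma, adjusted p = 0.191). Pde2a had 11 and 11 reads in knockdown libraries, 5 and 9 in TAC libraries, and 26 and 13 in sham libraries. Pex5l, whose protein TRIP8b binds pacemaker channels, had 17 and 11 reads in knockdown libraries, 6 and 10 in TAC libraries, and 16 and 21 in sham libraries.

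Likeness over the 6 libraries was taken for Cacna1g and Scn4b, the members with the smallest unadjusted p, as Pearson's r of log2 CPM against 11625 genes averaging 50 or more reads. All genes were read in the same 6 libraries and groups, so r describes likeness over these libraries only. Genes most like Cacna1g were Lman2l (0.990), Tcea3 (0.987) and Mia2 (0.986), and 157 genes reached 0.9. Those most like Scn4b were Znrd1 (0.990), Sema4d (0.987) and Art1 (0.984), and 120 genes reached 0.9. The size of differences is not measured by r. Lman2l spanned 31.9 to 36.7 CPM over the 6 libraries, against 22.9 to 45.4 CPM for Cacna1g. Tcea3, a transcription elongation factor gene, stood at 165 and 139 CPM in knockdown libraries, 154 and 129 in TAC libraries, and 191 and 186 in sham libraries, and put the 6 libraries in the same order as Cacna1g did.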

How the data were processed

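RNA was isolated with TRIzol and sequenced from SMARTer mRNA libraries, per the labels' protocols. The authors deposited 1 table of 19320 genes as log2 values in 6 columns; the submitters' processing notes name limma and the build mm10, while aligner, counter, annotation and strandedness are not stated there. From the values, each deposited log2 column is log2 CPM after adding 0.5 to each read count and 1 to the library total. Undoing the log and resolving the 2 columns of a group as 60:40 and 40:60 mixtures gave whole counts (tolerance 0.05) for 99.9% of 115920 values and 0 negative values, against 20.6 to 21.1% for the 12 pairs of columns from different groups. The labels and headers say nothing of mixing. Each resolved library takes the replicate number of the column it contributes most to.

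Limma 3.58.1 (R 4.3.3; intensity trend, 1 mean per group, 3 residual and 11.3 prior degrees of freedom) was fitted to log2 CPM of the resolved reads with 0.5 added, over 14447 genes with at least 2 libraries at the CPM of 10 reads in the median library and 15 reads in all. Adjustment over these genes followed Benjamini and Hochberg, with a threshold of 0.05. No count model was used, the file being on a log scale. Fold changes are on this log2 scale and understate those of genes with few reads. Intervals of fold changes and of counts are at 95%; Poisson intervals and the limit of 3 reads cover counting error only. The procedure was tried on simulated data whose planted changes were all larger than those fitted for the members with all libraries. The trial therefore does not show the power to detect differences of the members' size. Levels per kilobase use merged exons of GENCODE M21 (GRCm38), which may differ from the authors' gene models; promoter windows are those of RefSeq. The members and lists were chosen with earlier results of these data known. Named beside the members are, per pathway list, the 2 genes with the smallest unadjusted p between TAC and sham and between knockdown and TAC, with any listed gene past the threshold and a few family genes for their levels; some of these genes are not reported here.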

Additional observations from a re-analysis of the deposited data

How the results depend on the processing

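The count of members past the threshold was 0 of 8 in all 3 comparisons under median ratio scaling, quantile normalization, no filter on low values, 2 reads added, limma-voom weights, robust limma and the replicate block. In the deposited columns as they stand, limma called 8 members between TAC and sham, 7 between knockdown and TAC and 7 between knockdown and sham, and with them 71.5%, 62.8% and 70.8% of all 19320 genes; 2 mixtures of the same libraries do not show the spread between libraries. With 1 library left out, the count between TAC and sham ranged from 0 to 1 (Scn4b, without TAC replicate 1) and was 0 in the other comparisons. The replicate numbers did not pair the samples: over 10248 genes the deviations of same-numbered libraries correlated at -0.15 between TAC and sham, 0.09 between knockdown and sham and -0.09 between knockdown and TAC. With the replicate block 0 members were called, and the adjusted p for TAC over sham was 0.0855 for Cacna1g and 0.185 for Scn4b.

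No fold change past the threshold turned its sign. For TAC over sham, leaving out 1 library moved the log2 fold change of Scn4a between -0.66 and 0.08, Gja1 between -0.46 and 0.28, Hcn2 between -0.38 and 0.08 and Snai1 between -0.23 and 0.34; Snai1 was at -0.02 with quantile normalization. For knockdown over TAC it moved Scn4b between -0.12 and 0.73, Scn4a between -0.13 and 0.60, Gja1 between -0.06 and 0.08, Hcn4 between -0.47 and 0.13, Cacna1g between -0.04 and 0.40, Cacna1s between -0.07 and 0.42 and Cacna1c between -0.32 and 0.07; Gja1 was at -0.01 with median ratio scaling. For knockdown over sham it moved Scn4a between -0.24 and 0.13 and Gja1 between -0.45 and 0.29. In each comparison the signs of Gjc1 and Cacna1h were kept.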

Other observations

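The 8 markers of Purkinje fibres and bundles summed to 206 and 307 CPM in knockdown libraries. Their sums were 287 and 451 CPM in TAC libraries, and 216 and 164 in sham libraries. Nppa, which is also on the atrial list, made up most of the sum in the TAC libraries. It stood at 106 and 205 CPM in knockdown libraries, 173 and 346 in TAC libraries, and 113 and 68.2 in sham libraries. For TAC over sham, 4 of the 7 tested had a positive and 3 a negative log2 fold change, with a median of 0.20 against 0.04 over all genes tested. Of this list Cntn2, picked out after its values were seen, the gene of contactin 2 of the mouse His and Purkinje system, stood at 11.1 and 14.3 CPM in knockdown libraries, 18.1 and 9.99 in TAC libraries, and 18.8 and 23.4 in sham libraries. All 4 libraries with TAC lay below both sham libraries, and TAC replicate 2 was again the lowest. Tbx3, of the sinoatrial list and likewise picked out, which encodes a repressor that keeps nodal cells from becoming working muscle, stood at 19.8 and 18.3 CPM in knockdown libraries, 20.7 and 21.8 in TAC libraries, and 26.1 and 23.1 in sham libraries. Its levels in the 3 groups did not overlap, and the share of all genes with 3 groups apart was not counted. Of the sinoatrial list 6 genes were tested for TAC over sham, 1 positive and 5 negative, with a median of -0.15. For knockdown over TAC 3 were positive and 3 negative. Smoc2, the most abundant of that list, had means of 83.7 CPM with knockdown, 79.5 in TAC and 74.9 in sham.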
